A study of Mus musculus with 4 samples.

Results

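The genes described here belong to the programme of lymphocytes that make interleukin 17 (IL-17). They are 9 mouse genes fixed by name: Il17a, Il17f, Il23r, Sox13, Cd163l1, 5830411N06Rik, Serpinb1a, Tmem176a and Tmem176b. The list was chosen from known IL-17 genes with measured values of this same comparison in view, so the differences are a description of these genes. The annotation used here listed 7 of them, with 11 probe sets, among 18194 genes with a probe set of a single symbol. Il17f and Il23r were not analysed here. Each gene is represented by its brightest probe set, the one with the highest mean over the arrays, and the other probe sets serve as a check.

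Transcripts were measured on Affymetrix arrays in sorted ILC2, the group 2 innate lymphoid cells, positive for ICOS and of C57BL/6 origin. Culture lasted 2 weeks, with IL-7 and IL-33 added to OP9-DL1, a stromal line carrying a ligand of Notch. The control group is 2 arrays from littermates labelled control. The other group is 2 arrays from mice labelled ETS1-deleted, for deletion of the ETS family transcription factor gene Ets1. None of the sources used here gives the allele, the cells in which it was deleted, or the age and sex of the mice. Nothing says that the arrays of a group come from separate animals or cultures. The comparison addresses how loss of Ets1 changes the transcripts of ILC2.

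IL-17A and IL-17F are secreted cytokines that act on epithelium and stroma and bring in neutrophils. They are made by T helper 17 cells, by a subset of gamma-delta T cells and by group 3 innate lymphoid cells (ILC3), with signals from IL-1 and IL-23. ILC2 are known instead for IL-5 and IL-13, although activated ILC2 can make IL-17 in some settings.

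The values are probe set intensities, and a difference is the log2 value of the Ets1-deleted arrays minus that of the controls, ± the standard error (SE) from limma, with n = 2 arrays per group throughout. A gene was tested where its mean reached the dim limit of 97.44 intensity units, and it was called at a Benjamini-Hochberg adjusted p under 0.05 over the 10873 genes tested. Array medians lay between 96.5 and 97.71 intensity units. All 4 probe sets of Ets1 were lower in both Ets1-deleted arrays, by 6.88- to 11.4-fold.

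All 7 measured genes were higher in both Ets1-deleted arrays than in both controls, and all 7 were called in limma. Of all genes tested, 13.9% were called higher and 12.8% lower (26.7% in all), and 30.9% lay higher without overlap (62.6% in either direction). At least a 2-fold rise was found for 5 of the 7, namely Il17a, Sox13, Cd163l1, 5830411N06Rik and Serpinb1a, against 2.96% of all genes tested. The median log2 difference was 1.32 over the 7 genes and -0.004 over all genes tested. The 7 genes were named with earlier results of these data known, so their count and median describe them and are not independent evidence. Il17a and Sox13 reached the dim limit only through the Ets1-deleted arrays, while the control means of the other 5 lay above it. A difference in RNA per cell and a different share of cells that hold the transcript cannot be told apart in these bulk samples.

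**Figure D1:**
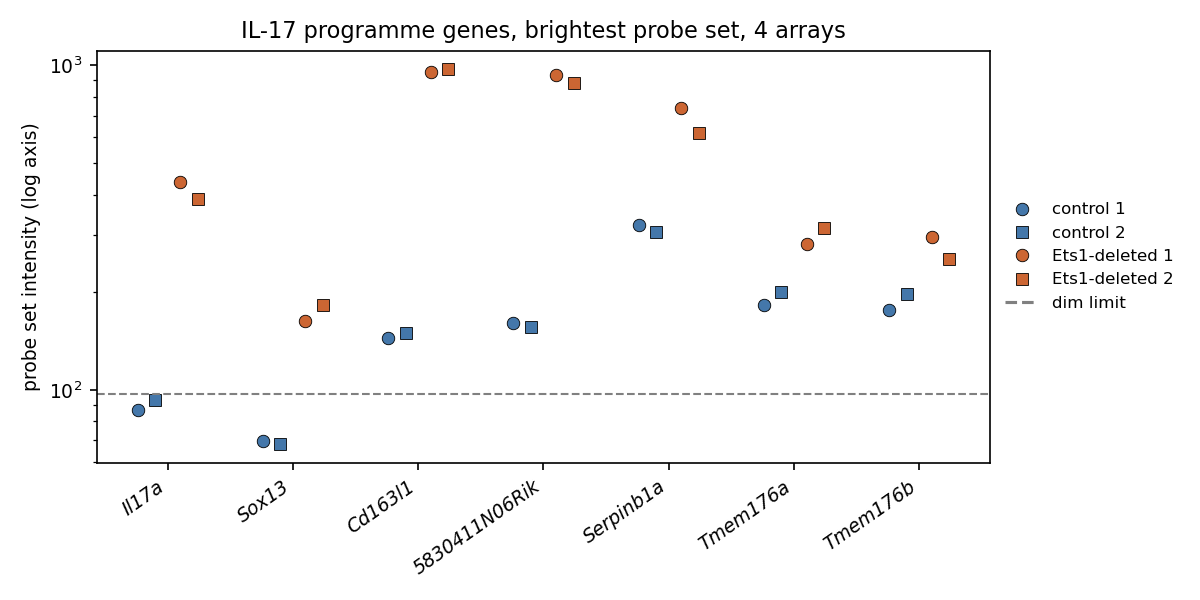
Intensity of the brightest probe set of each measured IL-17 programme gene (log axis, intensity units), with 1 point per array. Blue points are controls, orange points Ets1-deleted arrays, circles replicate 1 and squares replicate 2, and the dashed line is the dim limit of 97.44. For each gene both orange points lie above both blue ones, and the controls of Il17a and Sox13 lie under the limit.

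Il17a encodes the cytokine itself. The control arrays were at 86.5 and 93.04 intensity units, with 436.05 and 388.07 in the Ets1-deleted arrays. Both controls therefore sat in the dim range and both Ets1-deleted arrays were clearly above it. The difference was 2.20 ± 0.12, a 4.58-fold rise (limma, adjusted p = 6.78e-08). It held place 50 among the rises of all genes tested. The controls lay under the dim limit, so the size of the rise is not exact. With the 5th percentile of each array subtracted before log2, and anything under 16 intensity units set to 16, the difference was 3.40, which rests on control values close to that percentile.

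The promoter of Il17a is shown because this gene leads the programme. Promoter windows are 300 bases, from 250 before to 50 after an annotated start site, from RefSeq with build GRCm38.p6, and 6 of the 7 genes had at least 1. Capitals mark the nuclear receptor motif AGGTCA or the ETS motif GGAAGT, each searched on both strands.
Il17a, chr1:20730655-20730954, + strand: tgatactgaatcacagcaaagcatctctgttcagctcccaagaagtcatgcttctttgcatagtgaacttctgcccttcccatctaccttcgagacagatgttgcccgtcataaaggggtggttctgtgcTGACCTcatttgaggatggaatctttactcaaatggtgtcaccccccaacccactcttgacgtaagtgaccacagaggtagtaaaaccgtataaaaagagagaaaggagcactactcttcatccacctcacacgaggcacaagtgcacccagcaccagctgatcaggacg

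The Il17a window held a single nuclear receptor motif, on the reverse strand at -120 to -115, where the start site base is 0. A TATA box (TATAAA) lay at -31 to -26, an AP-1 motif (TGANTCA) at -244 to -238 and a RUNX motif (TGTGGT) at -52 to -47. Of 32851 promoter windows of the same length, 16.3% held the nuclear receptor motif, 13.6% the TATA box, 7.8% the AP-1 motif and 16.8% the RUNX motif on either strand. The ETS motif, found in 23.8% of those windows, and an NFAT motif (GGAAAA, 23.4%) had no match here. These matches describe letters in a window and were not tied to any measurement of binding.

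Sox13 encodes a transcription factor of the SOX family that gamma-delta T cells need to acquire the IL-17 programme. It read 69.53 and 68.27 in the controls and 162.75 and 182.49 intensity units in the Ets1-deleted arrays. The controls differed by a log2 gap of only 0.03 and lay near the floor of the arrays. Sox13 rose by 1.32 ± 0.11, or 2.50-fold (limma, adjusted p = 3.67e-06). With the 5th percentile subtracted, its controls fell to the set minimum of 16 intensity units, so no fold is given for that setting and the size of the Sox13 rise is not exact. Its promoter window was the richest in CpG among these genes, with 73.3% G and C and 40 CpG, against 48.3% and 6 for Il17a. It held no ETS or nuclear receptor motif and 1 STAT motif (TTCNNNGAA), which 8.3% of windows held.

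Cd163l1 and 5830411N06Rik, also called Scart1 and Scart2, encode scavenger receptor proteins of the cell surface that are known from gamma-delta T cells that make IL-17. They are next to each other on chromosome 7 in the RefSeq gene order of genes on this array. Cd163l1 read 144.29 and 149.42 in the controls and 956.16 and 971.61 intensity units in the Ets1-deleted arrays. Both groups were tight, with log2 gaps of 0.05 and 0.02 between their arrays. Cd163l1 rose by 2.71 ± 0.11, or 6.56-fold (limma, adjusted p = 1.55e-08), place 17 among all rises. 5830411N06Rik read 160.36 and 156.48 in the controls and 936.71 and 880.42 in the Ets1-deleted arrays. It rose by 2.52 ± 0.11, or 5.73-fold (limma, adjusted p = 2.17e-08), place 30. The nearest gene on the other side of Cd163l1, Sprn, went the opposite way and fell by 0.77 ± 0.13 (limma, adjusted p = 0.000728), with both Ets1-deleted arrays under the dim limit. The neighbour beyond 5830411N06Rik, Cyp2e1, was under the dim limit on all 4 arrays, at 57.71 to 67.34 intensity units, and was not tested.

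The second Cd163l1 probe set read 71.4 and 71.27 in the controls and 295.45 and 220.92 in the Ets1-deleted arrays. It gave a smaller rise of 1.84 ± 0.14, or 3.58-fold, by 1 row per probe set (limma, adjusted p = 1.45e-06). Its controls lay under the dim limit, so it was tested only through the Ets1-deleted arrays and the size of its rise is not exact. Its Ets1-deleted arrays stood further apart, by a log2 gap of 0.42. Its name ends in _x_at, which marks probe sets whose probes may also match other transcripts. The 2 genes come from 1 family, and how far their probes could share transcripts was not tested.

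The promoter windows of this pair are shown because the neighbours both rose. The first of 3 windows of 5830411N06Rik is given.
Cd163l1, chr7:140218017-140218316, + strand: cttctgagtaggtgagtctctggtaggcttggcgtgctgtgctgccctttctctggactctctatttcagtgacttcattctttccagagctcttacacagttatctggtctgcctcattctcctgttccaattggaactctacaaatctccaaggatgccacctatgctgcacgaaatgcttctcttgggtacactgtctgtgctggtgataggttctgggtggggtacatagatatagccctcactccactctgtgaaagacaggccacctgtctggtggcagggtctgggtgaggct
5830411N06Rik, chr7:140247051-140247350, + strand: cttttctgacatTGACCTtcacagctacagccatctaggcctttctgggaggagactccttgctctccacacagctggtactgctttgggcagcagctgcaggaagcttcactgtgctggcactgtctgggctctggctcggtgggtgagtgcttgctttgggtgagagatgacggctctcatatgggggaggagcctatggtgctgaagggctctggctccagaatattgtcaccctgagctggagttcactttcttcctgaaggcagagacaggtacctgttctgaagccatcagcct

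The Cd163l1 window held none of the 7 motifs searched. The first 5830411N06Rik window held a nuclear receptor motif on the reverse strand at -238 to -233, and its 2 later windows held another after the start site. Neither gene had an ETS motif in these windows. The windows had 2 CpG each and 50.7% and 55.0% G and C.

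Serpinb1a encodes an inhibitor of serine proteases inside the cell and is abundant in neutrophils as well as in IL-17 producing T cells. It read 321.48 and 306.41 in the controls and 737.07 and 619.68 intensity units in the Ets1-deleted arrays. All 4 values were well above the dim limit, and the groups did not overlap. Serpinb1a rose by 1.11 ± 0.12, or 2.15-fold (limma, adjusted p = 2.81e-05). Its second probe set, an _s_at set whose probes are shared by several transcripts, read 298.51 and 265.32 against 509.36 and 527. That probe set rose by 0.88 ± 0.12, or 1.84-fold (limma by probe set, adjusted p = 0.000131). The neighbouring gene Serpinb6b, of the same serpin clade, rose by 0.84 ± 0.16 (limma, adjusted p = 0.00188), and Wrnip1 on the other side differed by 0.02 ± 0.12. No promoter window matched Serpinb1a.

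Tmem176a and Tmem176b encode related membrane proteins of intracellular vesicles that are known from IL-17 producing lymphocytes and from dendritic cells. Their rises were the smallest of the 7. Tmem176a read 182.41 and 199.8 in the controls and 281.15 and 316.32 intensity units in the Ets1-deleted arrays. It rose by 0.64 ± 0.12, or 1.56-fold (limma, adjusted p = 0.00143). This call rests on an _x_at probe set, whose probes may also match other transcripts. Tmem176b, with a single probe set, read 176.1 and 197.53 against 296.22 and 253.67. It rose by 0.56 ± 0.12, or 1.47-fold (limma, adjusted p = 0.00492). For both genes the groups came close, with 0.49 and 0.36 log2 units between their nearest arrays.

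The other probe sets of Tmem176a were not called. The first of them read 175.51 and 224.61 in the controls and 248 and 257.26 in the Ets1-deleted arrays, a difference of 0.35 ± 0.13 (limma by probe set, adjusted p = 0.0771). The dimmest read 88.76 and 104.61 against 113.98 and 114.31, a difference of 0.24 ± 0.12 (limma by probe set, adjusted p = 0.166). Both were higher in the Ets1-deleted arrays without overlap, but the controls stood 0.36 and 0.24 log2 units apart. With the mean over the 3 probe sets the Tmem176a difference was 0.41 (limma, adjusted p = 0.0153). Over all members, 9 of 11 probe sets were called by 1 row per probe set. Of 19845 probe sets, 24.2% were called in either direction and 12.8% higher. The called ones include those of Il17a and Sox13 and the second of Cd163l1, which reached the dim limit only through the Ets1-deleted arrays.

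**Figure D2:**
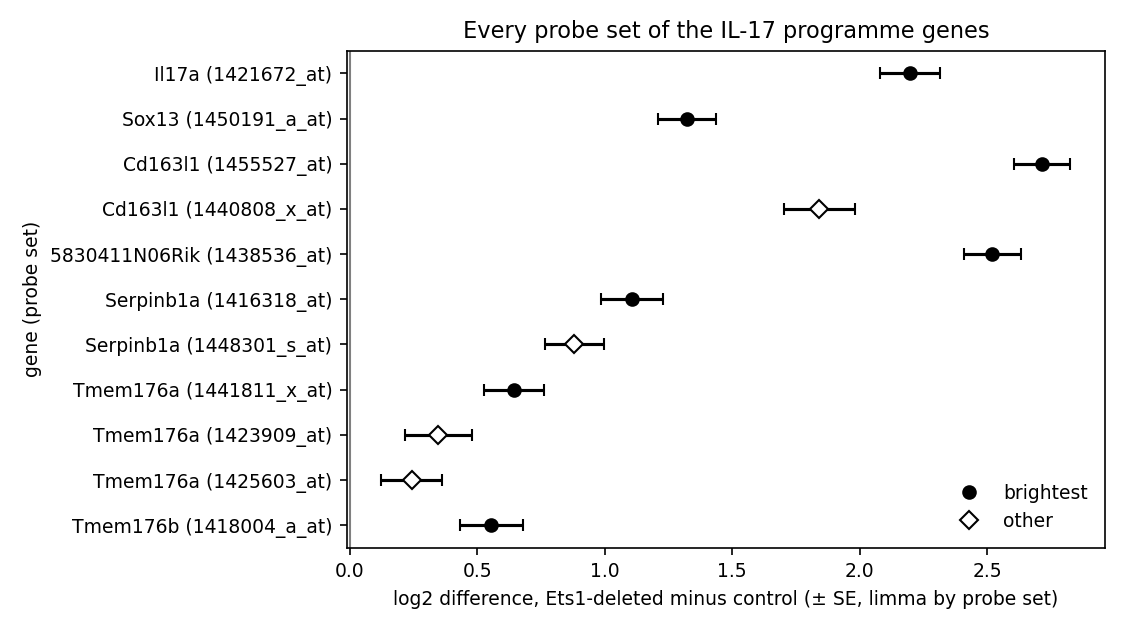
Log2 difference, Ets1-deleted minus control, of each of the 11 probe sets of the IL-17 programme genes, with SE bars from limma fitted by probe set. Filled circles are the brightest probe set of a gene and open diamonds the others. All lie to the right of 0, from 0.24 for the dimmest Tmem176a probe set to 2.71 for the brightest Cd163l1 probe set.

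The Tmem176 genes are shown by a promoter window because they are neighbours that share it. This second Tmem176a window overlaps 219 bases of the first Tmem176b window, which is read from the opposite strand.
Tmem176a, chr6:48841406-48841705, + strand: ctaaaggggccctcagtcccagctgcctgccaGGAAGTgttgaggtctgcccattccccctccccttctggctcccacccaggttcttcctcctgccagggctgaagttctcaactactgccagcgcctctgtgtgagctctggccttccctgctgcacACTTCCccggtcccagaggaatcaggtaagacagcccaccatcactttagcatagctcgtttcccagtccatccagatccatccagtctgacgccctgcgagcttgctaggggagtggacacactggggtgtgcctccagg

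This shared stretch held the ETS motif at -218 to -213 and, on the reverse strand, at -91 to -86 from the Tmem176a start site. Counted from the Tmem176b start site, the same pair of motifs lay at -69 to -64 and -196 to -191. Tmem176a and Tmem176b were the only measured genes of the programme with an ETS motif in any of the 11 windows, and neither held a nuclear receptor motif. Gimap3, the nearest other gene beside Tmem176b on chromosome 6, fell by 1.34 ± 0.12 (limma, adjusted p = 6.42e-06). The gene on the far side of Tmem176a, Aoc1, was under it on all 4 arrays, at 75.93 to 89.48 intensity units, and was not tested.

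By size, the differences ran in the order Cd163l1, 5830411N06Rik, Il17a, Sox13, Serpinb1a, Tmem176a and Tmem176b. The difference between single arrays of the groups spanned 2.68 to 2.75 for Cd163l1, 2.46 to 2.58 for 5830411N06Rik and 2.06 to 2.33 for Il17a, which did not overlap. Sox13 (1.23 to 1.42) and Serpinb1a (0.95 to 1.27) overlapped slightly, and Tmem176a (0.49 to 0.79) and Tmem176b (0.36 to 0.75) nearly coincided. The order holds for the deposited scale. With the 5th percentile of each array subtracted, the difference was 3.40 for Il17a, 3.32 for Cd163l1 and 3.06 for 5830411N06Rik, a different order. The Il17a value rests on controls close to that percentile, and those of Sox13 fell to the set minimum, so neither can be placed exactly. Of the Ets1-deleted arrays, the first was the higher for 4 genes and the second for 3, so neither array carried the rise alone. Without any 1 array the difference of Il17a lay between 2.11 and 2.28 and that of Tmem176b between 0.44 and 0.67. With each gene's own variance in place of the shared one, 0 of the 7 were called, with limma adjusted p from 0.0567 for Cd163l1 to 0.221 for Tmem176b. Of the 7, 6 had an unadjusted p under 0.05 in that fit, which called 13 of all genes tested.

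Likeness to Il17a was measured as the root mean square difference of centred log2 values over the 4 arrays. The closest of all genes tested were Spint2 (0.04), Lgals3 (0.04), Errfi1 (0.05), Cd28 (0.06) and Ptger2 (0.06). They encode a protease inhibitor, the lectin galectin-3, a feedback inhibitor of EGF receptor signalling, a costimulatory receptor and a prostaglandin E2 receptor. Their differences ran from 2.10 for Errfi1 to 2.27 for Lgals3. Of the programme genes 5830411N06Rik came nearest, in place 37 (0.17), then Cd163l1 in place 74 (0.27). Tmem176b was in place 790. With 4 arrays in 2 groups this measure mostly ranks genes by the size of their difference.

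The wider IL-17 pathway was read from 4 further lists. Of their 57 genes 53 had a probe set and 45 were tested, of which 17 rose, 5 fell and 23 were not called (37.8% higher, against 13.9% of all genes tested). The median was 0.08, close to that of all genes tested. Il22, Tcf7 and Il17c were not analysed here.

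Among cytokines of IL-17 producing lymphocytes, 4 of 6 rose and none was called lower, with a median of 0.55. Csf2, which encodes GM-CSF, read 289.14 and 331.57 in the controls and 2323.78 and 1985.97 intensity units in the Ets1-deleted arrays. It rose by 2.79 ± 0.12, more than any member of the IL-17 programme. The lymphotoxin gene Ltb rose by 0.74, the RANK ligand gene Tnfsf11 by 0.64 and Tnf by 0.46. Lta differed by -0.21 and the CCR6 ligand gene Ccl20 by 0.07, and neither was called. Il21 was too dim to be tested.

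Of 17 receptors and signalling genes that induce or mark the programme, 6 rose, 2 fell and 9 were not called, with a median of 0.10. Il1r1, the receptor for IL-1, read 102.07 and 105.73 against 370.23 and 372.51, a rise of 1.84 ± 0.11 (limma, adjusted p = 1.63e-07). The chemokine receptor gene Ccr2 rose by 1.57, Il18r1, for a chain of the IL-18 receptor, by 1.25 and Ccr6, a chemokine receptor of IL-17 producing cells with a control mean under the dim limit, by 1.03. Il12rb2, for a chain of the IL-12 receptor that the IL-23 receptor does not hold, rose by 0.93. Stat3 rose by 0.46, although the Stat3 probe set that moved least gave 0.08. Il12rb1, which encodes the chain that the IL-23 and IL-12 receptors share, differed by 0.06 ± 0.11 (limma, adjusted p = 0.752). Il21r fell by 0.96 and Il6ra by 0.67, the latter with another probe set at -0.05. The kinase gene Blk, known from gamma-delta T cells that make IL-17, differed by 0.08.

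Of 19 tested transcription factor genes, 7 rose, 3 fell and 9 were not called, with a median of 0.08. Etv5, an ETS family gene, rose by 1.38, Rora by 1.29, Sox4 by 1.27, and Zbtb16, which encodes PLZF, by 1.13. Hif1a rose by 0.91, Lef1 by 0.66 and Stat3 by 0.46. The controls of Zbtb16 (68.61 and 70.44) and Lef1 (85.57 and 82.42) lay under the dim limit, so both were tested only through the Ets1-deleted arrays, and the Zbtb16 probe set that moved least gave 0.23. Sox4 and Zbtb16 are both known from innate-like T cells, and Rora from ILC2 as well as T helper 17 cells. Id3 fell by 1.31, Irf4 by 0.75 and Nfkbiz by 0.62. Maf, a regulator of gamma-delta T cells that make IL-17, differed by -0.26 ± 0.12 and was not called (limma, adjusted p = 0.139). It was called lower with its probe sets averaged (-0.32, adjusted p = 0.0339) and without Ets1-deleted 1 (-0.39, adjusted p = 0.0477) in limma. Gata3, the ILC2 factor, differed by 0.08 ± 0.11, and Batf by -0.02. Among IL-17 ligands and receptors 4 were tested and 1 rose, the IL-25 receptor gene Il17rb (0.93), with a median of -0.09. Il17ra differed by -0.32 (limma, adjusted p = 0.0549), while Il17b, Il17d and Il25 were too dim to be tested.

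**Figure D3:**
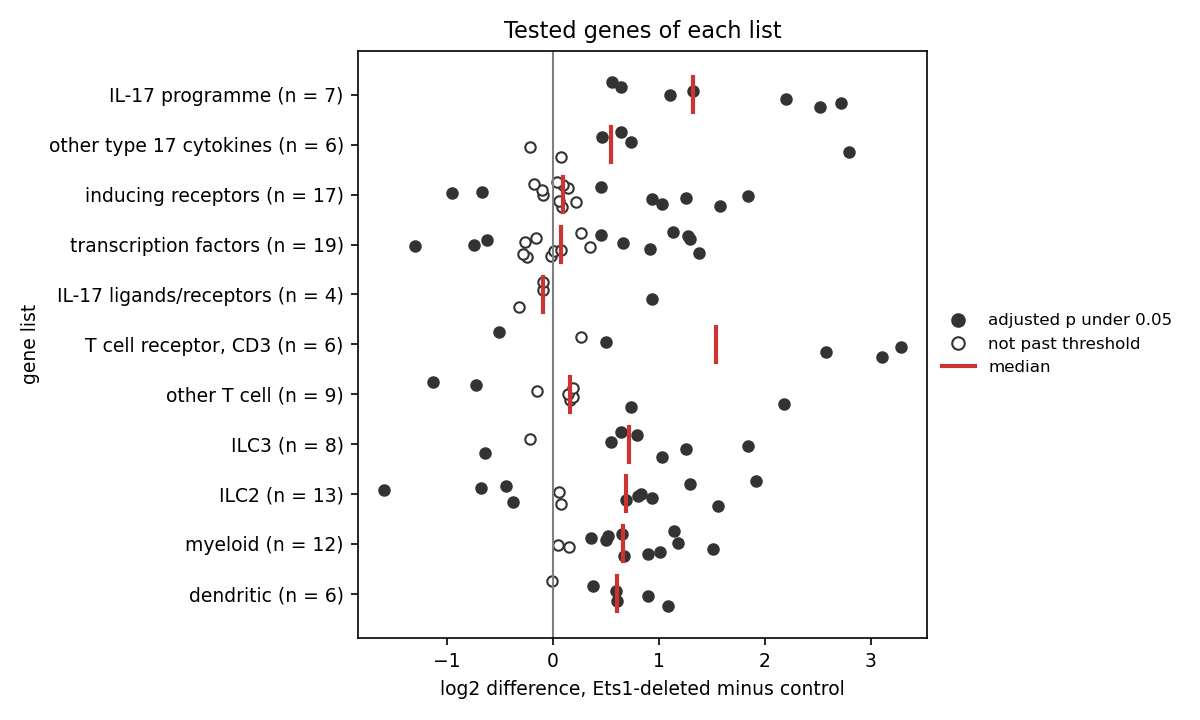
Log2 difference, Ets1-deleted minus control, of each tested gene by list, with filled points for an adjusted p under 0.05 in limma, open points otherwise and a red line at the median of the list. All tested IL-17 programme genes lie above 0, but they were named with earlier results of these data known. Il17a and Sox13 were tested only through the Ets1-deleted arrays. The list labelled inducing receptors, which also holds Il12rb2, and that of transcription factors spread to both sides with medians of 0.10 and 0.08.

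Because several of these genes are best known from gamma-delta T cells, T cell genes are given beside them. Of 4 CD3 chain genes, all rose. Cd3e read 102.84 and 81.63 in the controls and 803.26 and 991.55 in the Ets1-deleted arrays, a rise of 3.28 ± 0.14 (limma, adjusted p = 2.17e-08). The control mean of Cd3e lay under the dim limit, so the size of its rise is not exact. Cd247 rose by 3.11 and Cd3d by 2.58, but with its probe sets averaged Cd247 differed by 1.47. With the 5th percentile of each array subtracted, the values were 4.13 for Cd247 and 3.44 for Cd3d. Cd3g was bright already in the controls, at 1841.45 and 1892.7 against 2714.59 and 2561.4, and rose by 0.50. Of the 4 bright Cd247 probe sets, 1 differed by -0.21. Cd3e, Cd3d and Cd247 thus lay near the dim limit in the controls, as Il17a did, and Cd3g did not.

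The array holds 17 probe sets of 10 T cell receptor genes with a single symbol, of which 10 probe sets reached the dim limit. Of these, 4 rose, 1 fell and 5 were not called, by 1 row per probe set. None of the sources used here says which part of the receptor transcript each probe set reads. Trbv13-2, a beta chain segment, read 148.81 and 123.7 against 729.11 and 691.51, a rise of 2.39 ± 0.12 (limma, adjusted p = 6.37e-08). The bright Trbv1 probe set did not follow, at 2416.96 and 2450.29 in the controls and 2143 and 2085.31 in the Ets1-deleted arrays. Of the 3 bright probe sets of the alpha segment Trav9d-3, 1 rose by 1.25, 1 by 0.53, and the other differed by 0.06. Tcra, for the alpha locus, was under the dim limit on all 4 arrays.

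The gamma chain segment Trgv4, known from a gamma-delta T cell subset that makes IL-17, was among the bright genes in both groups. Its brightest probe set read 3553.75 and 3110.26 in the controls and 2605.28 and 2080.72 in the Ets1-deleted arrays. It fell by 0.51 ± 0.13 (limma, adjusted p = 0.0129). Its second probe set differed by -0.25 (limma by probe set, adjusted p = 0.124). The third and dim one rose by 1.23, from 80.36 and 66.74 to 157.48 and 186.29. Trgv1 differed by 0.26 and was not called (limma, adjusted p = 0.121). The sign for Trgv4 therefore depended on the probe set, with a rise only in the dim one, whose controls lay under the dim limit. The delta constant gene Trdc was not analysed here.

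**Figure D4:**
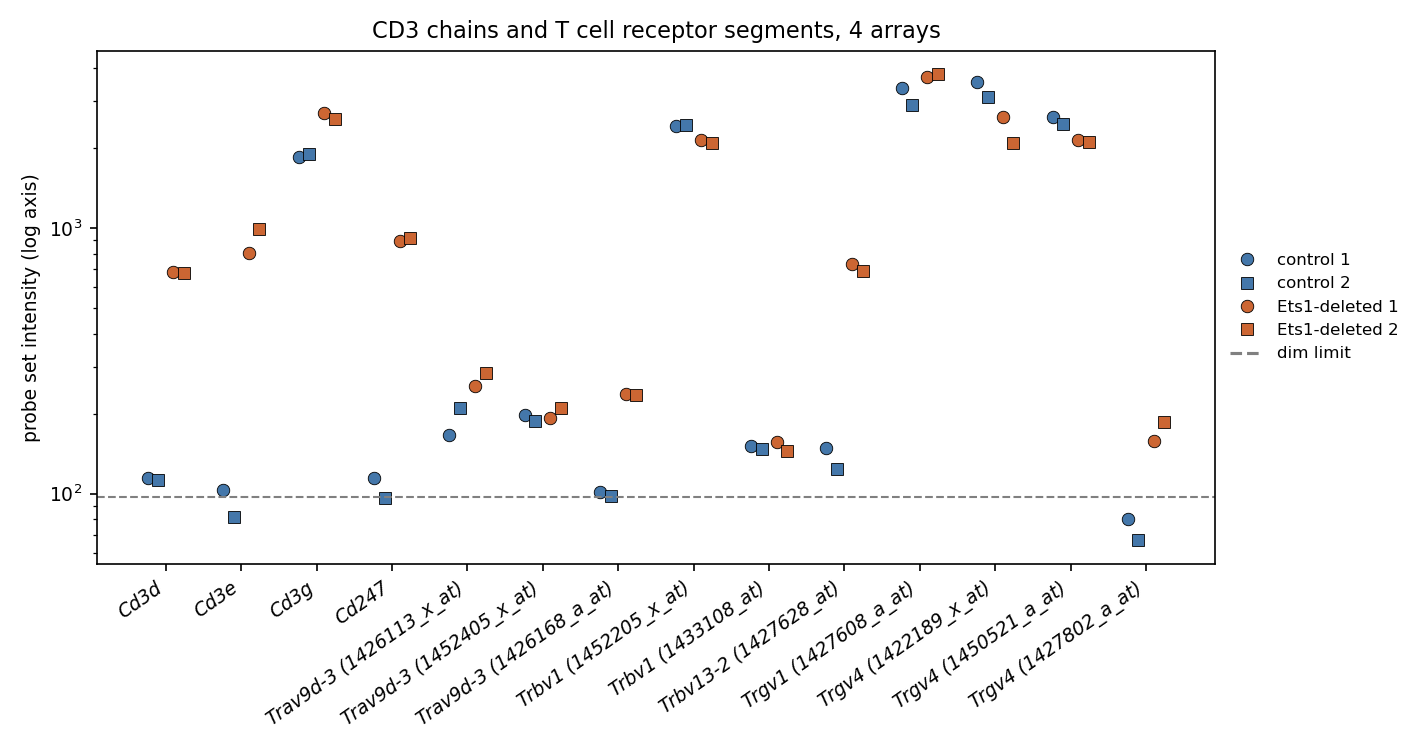
Intensity (log axis, intensity units) of the CD3 chain genes and of the 10 T cell receptor probe sets that reached the dim limit, with 1 point per array, symbols and dashed line as for the programme genes. Cd3d, Cd3e, Cd247 and Trbv13-2 rise from near the limit, while Cd3g, Trgv1 and the brighter Trbv1 and Trgv4 probe sets lie at or above 1841.45 in the controls.

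Of 9 other tested T cell genes, 2 rose, 2 fell and 5 were not called. Cd28 rose by 2.18 and Cd27 by 0.73. Zap70, the kinase that binds the CD3 chains, fell by 1.13, with another probe set at -0.07, and Ubash3a fell by 0.72. Cd4, Cd8a, Cd8b1 and Cd5 were under the dim limit in mean, at 65.73 to 97.38 intensity units on the 4 arrays. The summed intensity of the T cell lists was 12205.5 and 11332.5 in the controls and 15267.1 and 15196.7 in the Ets1-deleted arrays. Its largest parts in the controls were Trgv4, Trgv1 and Cd3g, so it does not show the larger folds of Cd3e, Cd3d and Cd247. The part of T cells in the rise of the IL-17 programme genes was not tested.

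Of 8 tested ILC3 markers, 6 rose and 1 fell. Il1r1, Il18r1, Ccr6, Nrp1 (0.79), Tnfsf11 and Kit (0.55) were higher, and Cd81 fell by 0.64. The control means of 2 of the 6, Ccr6 and Nrp1, lay under the dim limit. The ILC3 sum was 2502.7 and 2467.7 in the controls and 3565 and 3628.7 in the Ets1-deleted arrays. Ncr1 and Cxcr5 were too dim to be tested. The ILC2 sum was 24284.8 and 22020.5 in the controls and 29987.6 and 27554.4 in the Ets1-deleted arrays. Its genes were uneven in the controls, from Ptgdr2 at 142.95 and 143.79 to Icos at 6293.07 and 6009.34 intensity units. Of 13 ILC2 markers tested, 7 rose (53.8%) and 4 fell, with Il5 up by 0.83 and Il13 by 0.69. Klrg1, an inhibitory receptor, fell by 1.60, and Il1rl1 was not analysed here.

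Serpinb1a, Tmem176a and Tmem176b are also transcribed in myeloid or dendritic cells, so those markers stand beside them. Of 12 tested myeloid markers, 10 rose and none was called lower, with a median of 0.66, about as far as the Tmem176 genes. Ctsg rose by 1.51, S100a9 by 1.14 and Csf1r by 1.01, although the Csf1r probe set that moved least gave 0.40. Of the 10, 1, Adgre1, was under the dim limit in the controls, and Fcer1g differed by 0.04. Itgam, Cd14, Elane and Csf3r were too dim to be tested. The myeloid sum was 4151.2 and 4329 in the controls and 6406.3 and 6164.2 in the Ets1-deleted arrays. Of 6 tested dendritic cell markers, 5 rose, among them Cd74 (1.08) and H2-Ab1 (0.90), and the median was 0.60. Their sum was 1308.9 and 1296.1 against 1955.6 and 1915.2, while Flt3 and Zbtb46 were too dim to be tested. The part of such cells in the values of Serpinb1a, Tmem176a and Tmem176b was not tested.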

How the data were processed

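Per the labels' protocols, RNA was amplified by 2 rounds of in vitro transcription and labelled with biotin. The deposited values are intensities, 1 per probe set, summarised with RMA by the authors per the submitters' processing notes (version not given in the sources used here). They run from 39.47 to 23291 and were read as linear, an inference from their range, then turned into log2. Of 45101 probe sets, 34958 had 1 gene symbol, 932 several and 9211 none listed.

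Differences were fitted with limma 3.58.1 (lmFit, eBayes) in R 4.3.3, two-sided, with Benjamini-Hochberg adjustment over 10873 genes, 2 residual and 9.75 prior degrees of freedom. An exact permutation test of these groups cannot go below 0.333. The code was tested on simulated data. The members and all lists were chosen with earlier results of these data known, and named genes were list members past the threshold, the defining T cell, ILC3 and ILC2 genes, the 5 most like Il17a and the neighbours of members. Of 175 list genes 148 had a probe set. Mast cell, stroma and B cell lists are in the closing section, as are the alternatives. Values measure spread between samples that may be technical, and their number limits the precision. Motifs were searched in RefSeq promoter windows of GRCm38.p6, and no coordinates come from the deposited files.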

Additional observations from a re-analysis of the deposited data

How the results depend on the processing

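The 7 programme genes were higher in the Ets1-deleted arrays under every alternative run: repeated quantile normalization, median centring, subtraction of the array floor, no filter and a stricter filter on dim genes, the mean over probe sets, robust and ordinary variances, a variance trend, a replicate block, and leaving out each array. All that were tested were called under these, except with ordinary variances, which gave 0 programme genes, 0 other pathway genes, 1 T cell marker and 13 genes in all, from 2 residual degrees of freedom. At an unadjusted p under 0.05 that limma fit held 6 programme genes, 21 other pathway genes, 7 T cell markers and 2607 genes in all. The stricter filter, at 193.82 intensity units, tested 5 of the 7, leaving out Il17a and Sox13. With 1 row per probe set 4797 probe sets were called in all, 48 of other pathway genes and 14 of T cell markers, since genes then count more than once. Leaving out 1 array gave 2238 to 2736 genes in all, 7 programme genes, 21 to 23 other pathway genes and 8 to 9 T cell markers. Each of these fits has a group of 1 array, whose spread is taken from the other group, and without a control limma pooled the spread over all genes to 1 SE of 0.17, so they show how the values move and not how stable the calls are. The replicate block gave 3252 genes in all and again 7 programme genes. Deviations of same-numbered arrays correlated at 0.17 across genes, and with 2 numbers this does not show that they pair the samples.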

Other observations

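Markers of the remaining cell types moved unevenly beside the IL-17 programme genes. Of 8 tested genes of mast cells or basophils, 6 rose (75%, against 13.9% of all genes tested) and none was called lower, with a median of 0.38. The control means of 2 of the 6, Cpa3 and Hdc, lay under the dim limit. Cpa3, a mast cell carboxypeptidase gene, rose by 4.07 ± 0.12 (limma, adjusted p = 1.96e-09), from controls of 85.86 and 78.3 intensity units under the dim limit, so the size is not exact, while the basophil protease gene Mcpt8 differed by -0.25 and was not called. Without either control array only 3 of the mast cell genes were called. Of 9 genes of OP9 stroma and fibroblasts, 1 rose (Timp3, 2.55) and 3 fell (Pdgfrb, Cxcl12 and Vcam1), with 2 called in all without control 2 or Ets1-deleted 1. Of 3 tested B cell genes, Cd79b fell by 2.12, to values under the dim limit in the Ets1-deleted arrays, and the others were not called; without control 1 there were 2 calls.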
